A study of Homo sapiens with 6 samples.

Results

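The genes described here encode the core of ATM and ATR checkpoint signalling: ATM, ATR, ATRIP, CHEK1, CHEK2, TOPBP1, NBN, RAD50, CLSPN and H2AFX. They were chosen by gene symbol, and all 10 were found among the 55882 rows of the count table. RNA was measured in 3 libraries of p53 KO cells and 3 libraries of p53 WT cells. Both groups are DIvA cells, a derivative of the human osteosarcoma line U2OS that carries an AsiSI restriction enzyme which moves into the nucleus and cuts DNA after 4-hydroxytamoxifen (4-OHT) is added. Every library, in both groups, came from cells given 300 nM 4-OHT for 5 h, so break induction is shared and the comparison is of p53 status alone as far as the labels say. Untreated cells were not analysed here. The labels used here give neither the knockout method, nor the number of clones, nor whether replicates were separate cultures. The p-values therefore weigh the groups against the spread between these libraries, which may be technical, and an effect of p53 and a difference between clones cannot be told apart.

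ATM and ATR are large kinases that sit at the top of the DNA damage checkpoint. ATM is recruited and activated at broken ends by the complex of MRE11, RAD50 and NBN, and it phosphorylates the histone variant H2AX around the break and the kinase CHK2. ATR reaches RPA-coated single-stranded DNA through its partner ATRIP, is switched on by TOPBP1, and phosphorylates CHK1 with the help of the adaptor claspin. CHK1 and CHK2 restrain CDC25 phosphatases and so hold the cell cycle, and p53 is among the proteins that these kinases stabilise. Much of this pathway is controlled by phosphorylation, which RNA counts do not show.

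Of the 10 genes, 2 were higher in p53 KO cells (ATR and TOPBP1), 2 were lower (NBN and RAD50) and 6 did not pass the test. The test was edgeR's quasi-likelihood F-test with Benjamini-Hochberg adjustment over all 22352 genes tested, at an adjusted p under 0.05. Across all those genes 12.1% were called higher and 14.4% lower, 26.5% in either direction. The groups did not overlap for these same 4 genes, against 40.8% of all genes tested. The median log2 fold change (p53 KO over p53 WT) was 0.07 over the 10 genes and 0.0052 over all genes, and the median size of the change, sign aside, was 0.31 and 0.40. The call count of these genes is thus close to the background of the comparison, and what the data add is the direction of single members.

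The libraries and labels were checked first. Levels are given in CPM (counts scaled to library size with TMM factors). Total counts ranged from 20393909 to 79767519, so that a floor of 3 counts is 0.0376 to 0.147 CPM, taken from total counts without TMM factors. Every gene described lay above it except COL1A2, with 0.0411 CPM in p53 WT replicate 3, where the floor is 0.123 CPM. Floors cover counting error only. CDKN1A, a p53 target that blocks cyclin-dependent kinases, averaged 45.8 ± 3.68 CPM in p53 KO and 541.7 ± 27.0 CPM in p53 WT cells (SD, n = 3 each), and MDM2, the p53-induced ubiquitin ligase of p53, averaged 57.6 ± 13.3 and 221 ± 29.6 CPM. Summed levels of 7 mesenchymal and osteogenic markers were 3770 to 4150 CPM in p53 KO and 6770 to 7260 CPM in p53 WT libraries, with COL1A2 under 1 CPM in each. VIM and FN1 carried that difference, while COL1A1 went the other way, with 929.5 ± 82.8 CPM in p53 KO and 687.8 ± 10.8 CPM in p53 WT (SD, n = 3 each). Summed markers of other cells stayed low: 3 epithelial markers at 10.5 to 17.5 CPM in p53 KO and 5.49 to 9.29 CPM in p53 WT, 3 leukocyte markers at 1.08 to 1.12 and 1.27 to 2.21 CPM, and 2 endothelial markers at 1.3 to 2.93 and 2.07 to 3.29 CPM. Their part in the results below was not tested.

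Libraries of one group differed with transcript length. In p53 KO replicate 3 the longest 10% of protein-coding genes deviated from the mean of the group by a median of -0.15 on the log2 scale and the shortest 10% by 0.16. In p53 WT replicate 1 the deviations were -0.12 and 0.12, while p53 KO replicate 2 had 0.15 and -0.12. The checkpoint genes deviated the same way: their median deviation was -0.17 in p53 KO replicate 3, 0.12 in p53 KO replicate 2 and -0.15 in p53 WT replicate 1, with 7, 4 and 8 of the 10 below the group mean. Both p53 KO replicate 3 and p53 WT replicate 1 were then left out, a choice made after seeing the data. The same 4 genes were called in the same directions. They were also called when the length trend within each group was taken off. That run works on deviations from the mean of each group, so it could hardly change the difference between groups. A length difference between the groups was not tested.

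**Figure D1:**
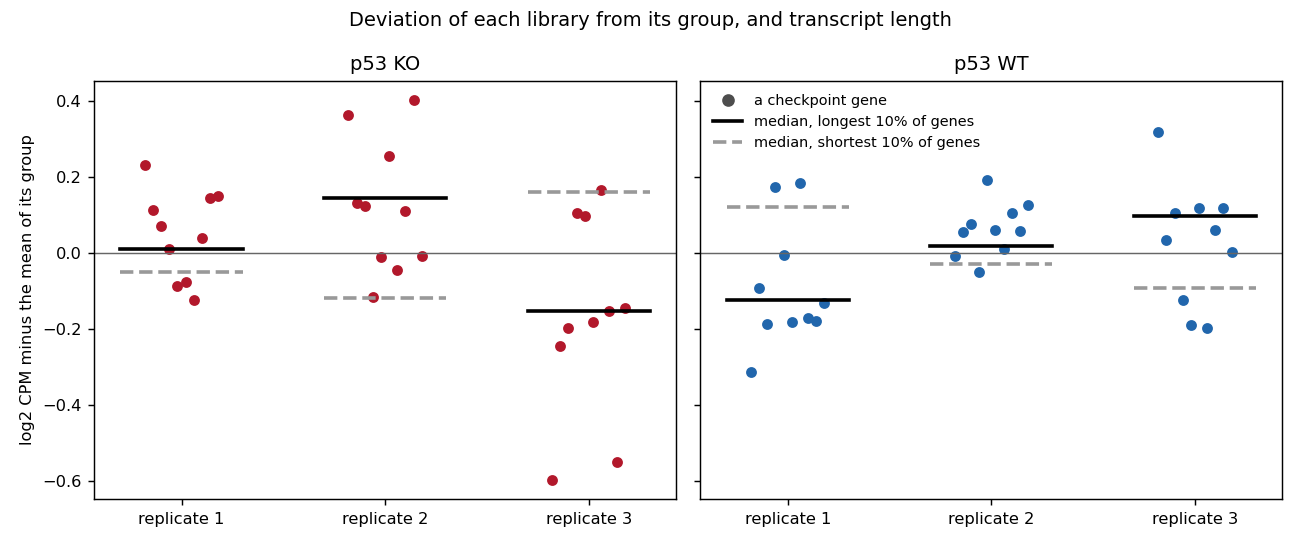
Deviation of log2 CPM from the mean of its group (y axis) in each library (x axis), p53 KO left and p53 WT right. Points are the 10 checkpoint genes, and lines are medians of the longest and shortest 10% of protein-coding genes; in p53 KO replicate 3 and p53 WT replicate 1 the line of long transcripts (-0.15 and -0.12) lies below that of short ones.

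The promoters of the called genes are shown because the study concerns a transcription factor and these windows hold words of other known factors. Each is the RefSeq window on GRCh38.p14 from 250 bases before to 50 bases after the annotated start, read on the strand of the gene. Capitals mark an ETS-factor word (CCGGAAG or its reverse complement) in ATR and RAD50 and an E2F word (TTTCGCGC, here as its reverse complement) in TOPBP1. The window of NBN is not shown. The ATR window is chr3:142578684-142578983 on the minus strand, the TOPBP1 window is chr3:133661892-133662191 on the minus strand, and the RAD50 window is chr5:132556727-132557026 on the plus strand.
ATR: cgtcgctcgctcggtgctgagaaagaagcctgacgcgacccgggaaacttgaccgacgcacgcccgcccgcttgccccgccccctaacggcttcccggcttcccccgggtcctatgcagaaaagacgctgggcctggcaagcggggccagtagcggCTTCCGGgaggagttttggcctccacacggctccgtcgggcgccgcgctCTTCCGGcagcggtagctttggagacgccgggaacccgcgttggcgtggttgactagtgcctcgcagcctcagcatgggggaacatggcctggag
TOPBP1: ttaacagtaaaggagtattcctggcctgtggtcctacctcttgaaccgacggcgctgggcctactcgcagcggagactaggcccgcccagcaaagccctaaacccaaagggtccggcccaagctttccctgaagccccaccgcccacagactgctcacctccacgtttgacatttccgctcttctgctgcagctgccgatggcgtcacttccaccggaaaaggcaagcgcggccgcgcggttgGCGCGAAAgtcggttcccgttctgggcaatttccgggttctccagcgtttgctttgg
RAD50: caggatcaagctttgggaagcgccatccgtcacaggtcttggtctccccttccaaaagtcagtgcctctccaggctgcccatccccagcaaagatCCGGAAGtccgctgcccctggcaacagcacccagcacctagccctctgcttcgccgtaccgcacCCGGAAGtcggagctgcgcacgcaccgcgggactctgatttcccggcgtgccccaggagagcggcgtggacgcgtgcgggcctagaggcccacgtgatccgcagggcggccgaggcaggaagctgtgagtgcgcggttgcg

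Words were searched on both strands in 9 of the 10 windows, leaving out NBN, taking the first RefSeq window of a gene. CCGGAAG was found in ATM, ATR and RAD50 (3 of 9), and in 10.7% of 27305 promoters. Any of 4 E2F words (TTTGGCGC, TTTCGCGC, TTTCCCGC or TTTGCCGC) was found in TOPBP1 and CLSPN (2 of 9), and in 3.33% of promoters. CCAAT was found in 6 of 9 windows, none of them a called gene, and in 35.7% of promoters; TTTGAA, the CHR word of cell cycle genes, was found in ATM and H2AFX and in 15.4%. A p53 half-site in its consensus form was found in 0 of 9 windows and in 6.54% of promoters, and a p53 full site (a pair of half-sites at most 13 bases apart, with at most 1 mismatch outside the cores) in 0 of 9 and 0.264%. In the authors' deposited table, 0 of the 10 genes are marked as intersecting the p53 cistrome, against 124 of 35987 rows in all. CDKN1A and MDM2 are marked there. Full sites and marked rows are so rare that 0 is the usual count for so few genes. The windows of MDM2 and PPM1D, both p53-induced, held no p53 half-site or full site either. The search thus does not tell the members from such genes, and whether p53 acts on the members was not tested. A word is a match of letters, not a bound site.

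At the sensor of broken ends, NBN and RAD50 were lower in p53 KO cells. NBN, which ties the MRE11 complex to ATM, had 61.5, 62.3 and 48.0 CPM in p53 KO replicates 1 to 3 and 83.6, 92.5 and 91.1 CPM in p53 WT replicates 1 to 3. Every p53 KO library lay below every p53 WT library. In bulk RNA, fewer expressing cells and less RNA per cell cannot be told apart, here and for the genes that follow. The log2 fold change was -0.63 (SE 0.12), or 0.645-fold, with adjusted p = 0.0011 by edgeR. NBN kept its call under every alternative run, between -0.70 and -0.40, and was the only member to do so.

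RAD50, the ATPase subunit that bridges DNA ends, had 45.7, 47.3 and 37.9 CPM in p53 KO and 51.4, 61.7 and 63.0 CPM in p53 WT replicates 1 to 3. The groups did not overlap, but the highest p53 KO library was close to p53 WT replicate 1. The log2 fold change was -0.42 (SE 0.12, adjusted p = 0.0205 by edgeR), and the call was lost without p53 KO replicate 3 (-0.32, adjusted p = 0.0542), p53 WT replicate 2 (-0.39, adjusted p = 0.0968) or p53 WT replicate 3 (-0.38, adjusted p = 0.0875). The annotated gene AC116366.3, on the same strand, covers 79.7% of the exon bases of RAD50. It has no row under that name in the count table, and no source used here says how shared bases were counted.

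MRE11A, the nuclease of the same complex, is not among the 10 genes and was singled out after its values were seen. It had 38.8, 38.2 and 29.8 CPM in p53 KO and 23.1, 27.5 and 24.4 CPM in p53 WT replicates 1 to 3, or 0.52 on the log2 scale (edgeR adjusted p = 0.0119, SE 0.14). The transcripts of this complex thus moved in different directions, with NBN and RAD50 lower and MRE11A higher in p53 KO cells. The call of MRE11A was lost without p53 KO replicate 1 (0.45, adjusted p = 0.054), p53 WT replicate 1 (0.45, adjusted p = 0.0564) or p53 WT replicate 3 (0.49, adjusted p = 0.0521). Net of the median change of its 50 nearest genes, described below, it had 0.24 (adjusted p = 0.242).

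ATM, the kinase that this complex activates, had 51.8, 56.8 and 29.2 CPM in p53 KO and 32.7, 40.4 and 50.6 CPM in p53 WT replicates 1 to 3. The groups overlapped along most of their range, and the lowest value of all was p53 KO replicate 3. The log2 fold change was 0.17 (SE 0.21, adjusted p = 0.626 by edgeR), with a 95% interval of -0.28 to 0.62. Without p53 KO replicate 3 the value was 0.41 (adjusted p = 0.0482), and without p53 KO replicate 2 it was -0.014 (adjusted p = 0.977), so the sign and the call both rest on single libraries.

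Of the targets of ATM, H2AFX and CHEK2 did not pass the test. H2AFX, which encodes H2AX, had 239.8, 219.6 and 256.2 CPM in p53 KO and 274.4, 235.0 and 223.2 CPM in p53 WT replicates 1 to 3, with a log2 fold change of -0.035 (95% interval -0.26 to 0.19, adjusted p = 0.852 by edgeR) and 0.048 without p53 WT replicate 1. Poly(A) RNA was sequenced, so H2AFX transcripts without a poly(A) tail are not measured here. CHEK2, the kinase CHK2, had 22.0, 23.1 and 25 CPM in p53 KO and 19.4, 22.3 and 17.1 CPM in p53 WT replicates 1 to 3. Its log2 fold change was 0.25 (95% interval -0.058 to 0.55, adjusted p = 0.238 by edgeR), and only p53 WT replicate 2 reached into the p53 KO range. It was 0.15 without p53 WT replicate 3.

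On the ATR side, ATR itself was higher in p53 KO cells while its partner ATRIP was not called. ATR had 54.0, 68.1 and 50.2 CPM in p53 KO and 37.5, 44.3 and 46.2 CPM in p53 WT replicates 1 to 3. The groups did not overlap, and p53 KO replicate 2 was the highest library. The log2 fold change was 0.43 (SE 0.13), or 1.35-fold, with adjusted p = 0.027 by edgeR. The call was lost without p53 KO replicate 2 (0.29, adjusted p = 0.146), p53 WT replicate 1 (0.34, adjusted p = 0.123) or p53 WT replicate 2 (0.46, adjusted p = 0.0702). Net of the median change of its 50 nearest genes the direction turned, to -0.45 (adjusted p = 0.0273). A gene on the other strand, AC109992.1, covers 16.4% of the annotated exon bases of ATR, and no source used here gives the strand setting of the count.

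ATRIP, without which ATR is not recruited to RPA, had 13.6, 14.4 and 16.6 CPM in p53 KO and 18.1, 16.0 and 13.9 CPM in p53 WT replicates 1 to 3. The groups overlapped, and the log2 fold change was -0.11 (95% interval -0.46 to 0.23, adjusted p = 0.672 by edgeR). Leaving out 1 library moved it between -0.21 (without p53 WT replicate 3) and -0.024 (without p53 WT replicate 1). TREX1 lies on the same strand and covers 27.9% of the annotated exon bases of ATRIP, so reads of the pair may be split between them.

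TOPBP1, the activator of ATR, had 177.6, 186.6 and 155.6 CPM in p53 KO and 118.1, 143.1 and 138.6 CPM in p53 WT replicates 1 to 3. Every p53 KO library was above every p53 WT library. The log2 fold change was 0.38 (SE 0.11), or 1.3-fold, with adjusted p = 0.0169 by edgeR. The call was lost without p53 KO replicate 1 (0.36, adjusted p = 0.0569), p53 KO replicate 2 (0.32, adjusted p = 0.0678) or p53 WT replicate 1 (0.29, adjusted p = 0.0951), and net of its neighbours the value was -0.087 (adjusted p = 0.625).

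Claspin and CHK1, the last steps of the ATR branch, did not pass the test. CLSPN had 55.5, 66.3 and 34.3 CPM in p53 KO and 58.6, 69.0 and 72.1 CPM in p53 WT replicates 1 to 3. The lowest library by a wide margin was p53 KO replicate 3. The log2 fold change was -0.35 (95% interval -0.74 to 0.044, adjusted p = 0.191 by edgeR), but the value rests on single libraries: it was -0.12 (adjusted p = 0.559) without p53 KO replicate 3 and -0.56 (adjusted p = 0.0284) without p53 KO replicate 2. Without the filter on low counts it was -0.36 (adjusted p = 0.0261), and net of the median change of its neighbours 0.13 (adjusted p = 0.669). CHEK1 had 49.6, 44.5 and 40.4 CPM in p53 KO and 34.1, 40.8 and 37.4 CPM in p53 WT replicates 1 to 3, where p53 KO replicate 3 lay just below p53 WT replicate 2. Its log2 fold change was 0.26 (95% interval 0.0020 to 0.53 before any adjustment, adjusted p = 0.135 by edgeR), and 0.34 (adjusted p = 0.0447) without p53 KO replicate 3.

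**Figure D2:**
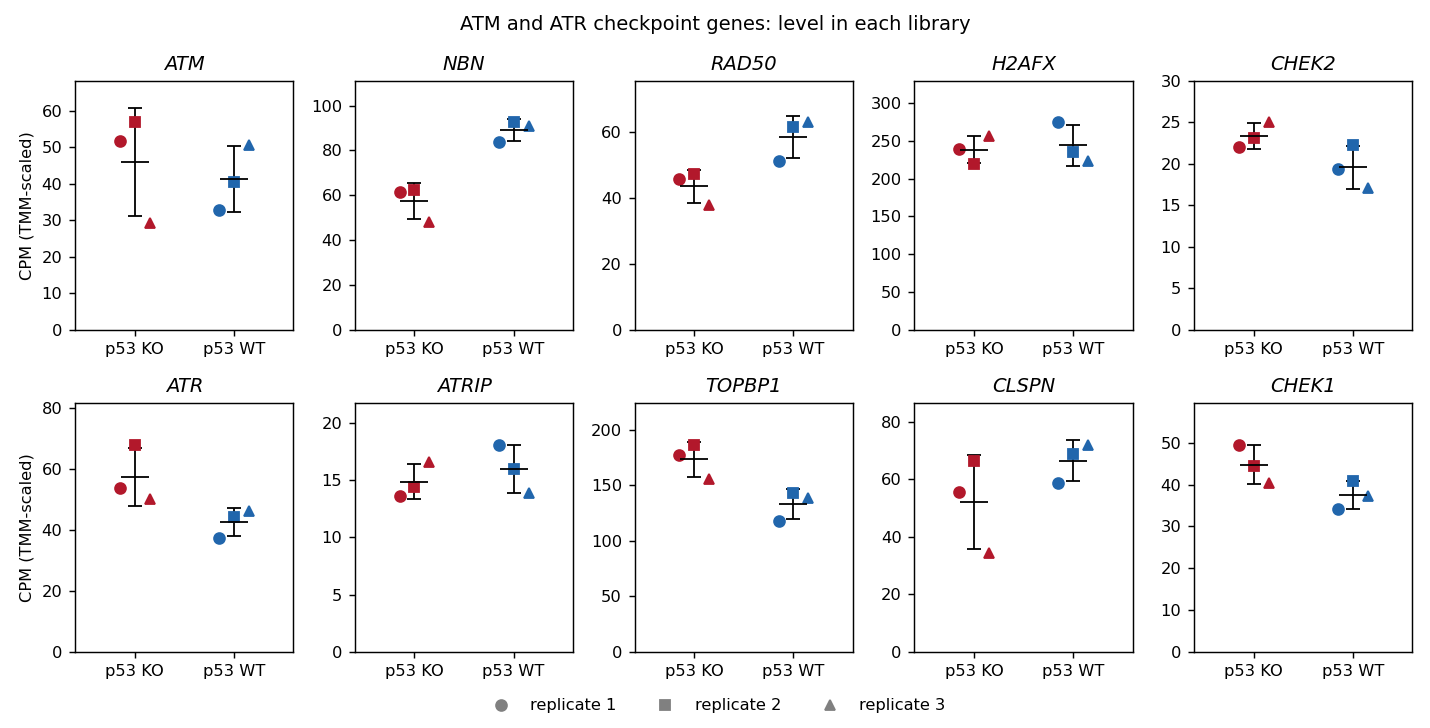
Level of each gene in CPM (y axis, from 0) in the 3 p53 KO libraries (red, left) and the 3 p53 WT libraries (blue, right), with a marker per replicate and the mean ± SD in black. NBN and RAD50 lie lower and ATR and TOPBP1 higher in p53 KO libraries without overlap, and p53 KO replicate 3 is the lowest library for ATM (29.2 CPM) and CLSPN (34.3 CPM).

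In the authors' deposited table, 2 of the 10 genes have an adjusted p under 0.05, NBN and TOPBP1, against 20.8% of the 24122 rows that hold one. Fold changes there have p53 WT on top, judged from CDKN1A, which is 3.54 on the log2 scale in the authors' deposited table. In all 35987 rows of the authors' deposited table the test statistic has the opposite sign to the fold change, so its columns give no single direction. The authors' deposited table gives NBN 0.61 (adjusted p = 1.94e-05) and TOPBP1 -0.40 (adjusted p = 0.0446). For RAD50 and ATR the authors' deposited table gives 0.40 and -0.45, with adjusted p = 0.108 and 0.109, so direction and size match the values above but the call does not.

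Several of the genes lay among neighbours that moved the same way. For each gene the 50 nearest protein-coding genes in RefSeq order (mean of at least 2 CPM) were taken, and their median log2 fold change is called the local median here. Around ATR the local median was 0.88, and 37 of 50 neighbours were called higher and 2 lower; its adjacent genes XRN1 and PLS1 had 0.95 and 0.90. Around TOPBP1, on the same chromosome 3, the local median was 0.47, and its adjacent genes CDV3 and SRPRB had 0.62 and 0.48. The windows of ATR and TOPBP1 share part of their genes, so they are not 2 separate neighbourhoods. ATR rose less than 38 of its 50 neighbours, and TOPBP1 less than 29 of 50.

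ATM and CLSPN also lie among shifted genes, though neither passed the test. Around ATM, on chromosome 11, the local median was 0.54, with 33 neighbours called higher and 4 lower, and NPAT, which shares a promoter region with ATM, had 0.75 (adjusted p = 0.00334 by edgeR). Around CLSPN, on chromosome 1, the local median was -0.48, with 0 called higher and 31 lower. Around CHEK2, on chromosome 22, the local median was -0.32, with 1 called higher and 21 lower, so that only 3 of 50 neighbours had a larger value than CHEK2. Around CHEK1, RAD50, ATRIP and H2AFX the local median lay between -0.010 and 0.10.

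With the local median entered as an offset, the calls were different ones. The offset was treated as known. Every adjusted p given net of neighbours therefore leaves out the spread among the neighbours and the error of their median. The quartiles of the neighbours were 0.54 and 1.2 around ATR, and -0.65 and 0.001 around CHEK2. Whether a member departs from its neighbours beyond that spread was not tested. ATR turned to -0.45 (adjusted p = 0.0273 by edgeR), a call in the opposite direction, and TOPBP1 had -0.087 (adjusted p = 0.625). CHEK2 became called higher, at 0.57 (adjusted p = 0.00979). NBN and RAD50 kept their calls, at -0.40 and -0.45 (adjusted p = 0.0225 and 0.018). RAD50 moved little because its local median was 0.023, with 8 neighbours called higher and 5 lower. NBN lost part of its size to a local median of -0.23, and its adjacent genes OSGIN2 and DECR1 had -0.63 and -0.66, close to NBN itself. In all 1 of the 10 genes was then higher and 3 lower, where 11.1% of 17093 genes with a position were higher and 11.4% lower.

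**Figure D3:**
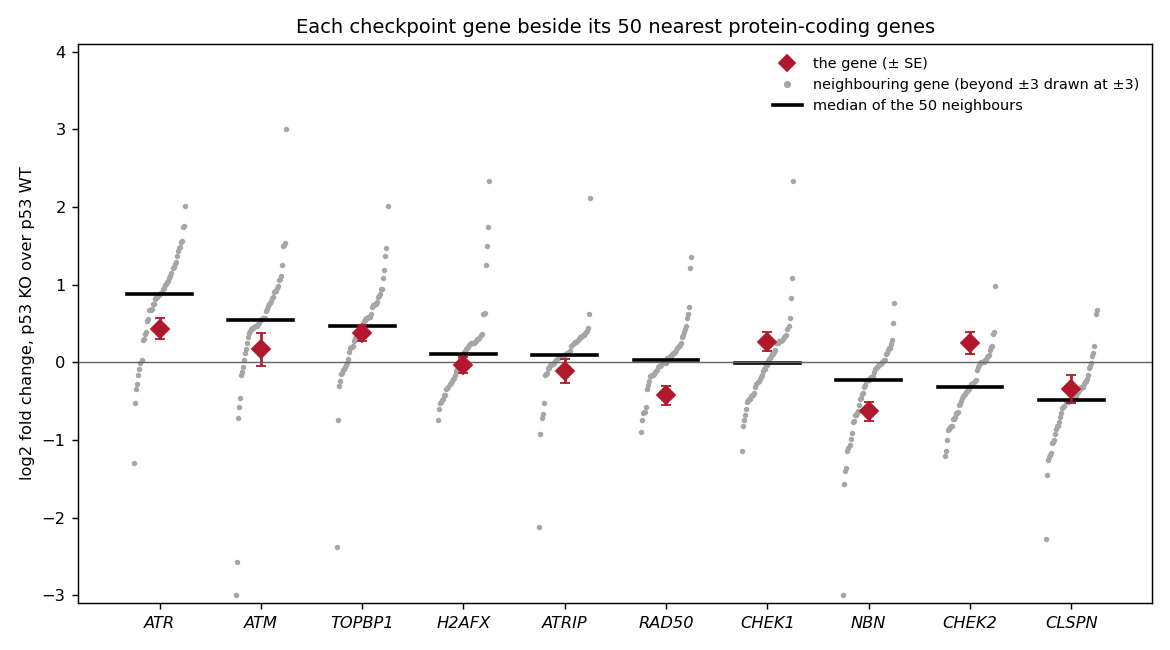
Log2 fold change of p53 KO over p53 WT (y axis) for each gene (red diamond, ± SE), its 50 nearest protein-coding genes (grey points, sorted by value) and their median (black line), genes ordered by that median. ATR lies below a local median of 0.88 and CHEK2 above one of -0.32, while RAD50 is low beside neighbours centred on 0.023.

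Levels of different genes can be set side by side only per length. Per kilobase of annotated exon (GENCODE 29), H2AFX had the highest level, 148 ± 11.4 CPM per kb in p53 KO and 151 ± 16.6 in p53 WT, followed by TOPBP1 with 23.7 ± 2.18 and 18.2 ± 1.82 (SD, n = 3 each). In p53 KO cells the order went on with CLSPN 9.61, NBN 9.30, CHEK1 6.84, CHEK2 5.20, ATR 4.60, RAD50 4.47, ATRIP 2.74 and ATM 1.92 CPM per kb. Neighbours in that order whose libraries overlapped were CLSPN and NBN, CHEK2 and ATR, and ATR and RAD50. In p53 WT cells it went on with NBN 14.5, CLSPN 12.3, RAD50 6.01, CHEK1 5.71, CHEK2 4.36, ATR 3.41, ATRIP 2.94 and ATM 1.72 CPM per kb, and RAD50 overlapped CHEK1 and ATR overlapped ATRIP. RAD50 thus stood beside ATR in p53 KO and above it in p53 WT cells. The total exon length overstates the transcript of a gene with many isoforms: per kilobase of its principal transcript ATM had 3.49 CPM in p53 KO and 3.13 in p53 WT, close to ATRIP with 3.25 and 3.49. On that scale CHEK2, with 11.9 CPM per kb in p53 KO and 10.0 in p53 WT, stood above CHEK1 with 10.8 and 9.01, and RAD50, with 5.25 and 7.07, stood below both and, in p53 KO, below ATR with 6.96. In p53 WT ATR had 5.16.

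Over the 6 libraries the genes whose log2 CPM followed a called member most closely, of 12694 others with a mean of at least 5 CPM, were CHSY1 and RAI1 for ATR (Pearson's r 0.994 and 0.991), SAMD12 and SGTB for TOPBP1 (0.999 and 0.996), EXOC5 and ALCAM for NBN (0.999 and 0.999), and SPIN1 and GALNT7 for RAD50 (0.997 and 0.995). These are descriptions over libraries that share the group difference and the length deviation given above.

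Beyond the 10 genes, 44 others of the pathway were read from 7 lists, and all 44 were tested. Of these 13 were higher and 5 lower in p53 KO cells, with a median log2 fold change of 0.06, where 12.1% of all genes tested were higher and 14.4% lower. The counts of the single lists below stand against the same shares. Net of the local median 10 were higher and 4 lower, against 11.1% and 11.4% of genes with a position. Among them were 7 genes that had been higher before and 2 that had been lower. The others, RFC4, RPA2 and CDK1 (higher) and TIMELESS and CDC25B (lower), were named after their values were seen. Among RPA and ETAA1, 2 of 4 rose. RPA1, the large subunit that binds single-stranded DNA, averaged 168.7 ± 5.08 CPM in p53 KO and 110.7 ± 1.81 CPM in p53 WT (SD, n = 3 each), or 0.61 on the log2 scale (edgeR adjusted p = 0.000184, SE 0.09), and 0.51 net of the local median. RPA3, the small subunit, had 0.36 (adjusted p = 0.0493 by edgeR). The groups overlapped for RPA3, with p53 KO replicate 2 at 83.3 CPM and p53 WT replicate 1 at 85.8 CPM. Its call was lost without p53 KO replicates 1 or 3 (0.32 and 0.32) or p53 WT replicates 2 or 3 (0.34 and 0.25), and net of the local median.

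In the 9-1-1 clamp and its loader, which bring TOPBP1 to ATR, 2 of 9 rose and 0 fell. Both were loader subunits: RFC2 had a log2 fold change of 0.34 and RFC3 0.39 (adjusted p = 0.0217 and 0.0306 by edgeR). RFC2 lost its call without p53 WT replicates 2 or 3 (0.34 and 0.32). RFC3 lost it in 5 of 6 leave-one-out fits, between 0.30 and 0.45, and kept it only without p53 KO replicate 3. Net of the local median it had 0.33 (adjusted p = 0.07). RAD1, HUS1, RAD9A and RAD17 did not pass the test, with values from -0.29 to 0.04.

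Of MRE11 and ATM cofactors, 3 of 5 rose and 1 fell. MDC1, the adaptor that reads phosphorylated H2AX, had 171.0, 206.1 and 179.9 CPM in p53 KO and 98.0, 108.4 and 145.5 CPM in p53 WT replicates 1 to 3, or 0.67 on the log2 scale (edgeR adjusted p = 0.00216, SE 0.14). ATMIN, an ATM-interacting factor, had 0.38 (adjusted p = 0.0105 by edgeR) and -0.20 (adjusted p = 0.165) net of the local median. RBBP8, which encodes the resection factor CtIP, fell, with 58.5 ± 5.95 CPM in p53 KO and 82.0 ± 5.30 CPM in p53 WT (SD, n = 3 each) and or -0.49 on the log2 scale (edgeR adjusted p = 0.00462, SE 0.11). Of the kinase maturation factors 1 of 3 fell: TELO2, which stabilises ATM and ATR as newly made proteins, had -0.45 (adjusted p = 0.0101 by edgeR), -0.43 (adjusted p = 0.0555) without p53 WT replicate 2, and 0.16 (adjusted p = 0.363) net of the local median. Of fork protection genes and claspin partners 1 of 5 fell, WDHD1, at -0.79 (SE 0.14, adjusted p = 0.000764 by edgeR), or -0.11 (adjusted p = 0.651) net of the local median.

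Of the cell cycle effectors, 4 of 9 rose and 0 fell, and net of the local median 4 were higher and 1, CDC25B, lower. CCNB1, cyclin B1, averaged 558.8 ± 8.68 CPM in p53 KO and 336.5 ± 10.3 CPM in p53 WT (SD, n = 3 each), a log2 fold change of 0.73 (SE 0.08). CDC25A, the phosphatase that CHK1 marks for destruction, averaged 68.7 ± 1.79 and 44.5 ± 1.74 CPM, a log2 fold change of 0.62 (SE 0.10), and CDK2 had 0.52 (SE 0.09). Adjusted p by edgeR was 2.24e-05, 0.000408 and 0.000794 for these 3, and each kept its call net of the local median. The other gene that rose, CCNA2, named after its values were seen, had 0.30 (adjusted p = 0.0299 by edgeR) and lost its call in 5 of 6 leave-one-out fits (0.26 to 0.32), keeping it without p53 KO replicate 3. Net of the local median it had 0.12 (adjusted p = 0.391).

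Of the genes of signal termination and recovery, 2 of 9 rose and 2 fell. PPM1D, a p53-induced phosphatase that removes ATM and CHK2 phosphorylation marks, had 34.9, 47.2 and 35.5 CPM in p53 KO and 77.9, 96.8 and 107.6 CPM in p53 WT replicates 1 to 3. Its change of -1.26 on the log2 scale (edgeR adjusted p = 2.31e-05, SE 0.15) was larger in size than that of any of the 10 checkpoint genes. PLK1 and AURKA, mitotic kinases that drive recovery from the checkpoint, had 0.69 and 0.59 (adjusted p = 5.45e-05 and 0.000247 by edgeR); AURKA had 0.25 (adjusted p = 0.057) net of the local median. USP7, a deubiquitinase of MDM2 named after its values were seen, had -0.33 (adjusted p = 0.02 by edgeR), and lost its call without p53 KO replicate 2 or p53 WT replicate 2 (-0.30 and -0.27), and net of the local median (-0.10, adjusted p = 0.483).

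**Figure D4:**
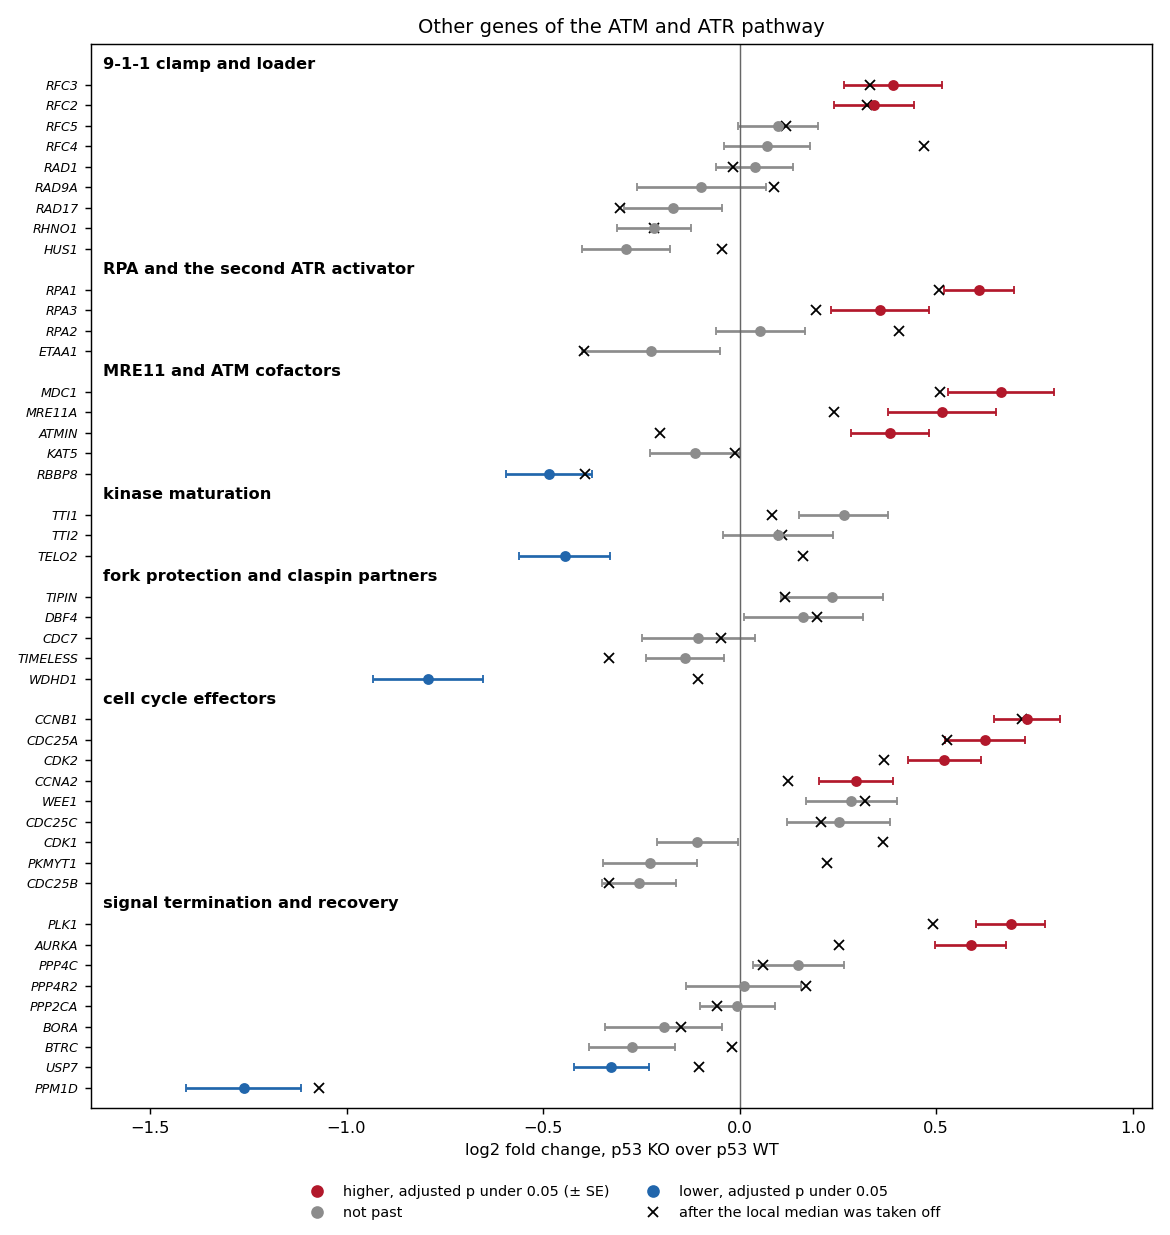
Log2 fold change of p53 KO over p53 WT (x axis) for 44 other genes of the pathway in 7 lists, as points ± SE coloured by call at an adjusted p under 0.05; crosses give the value net of the local median. PPM1D (-1.26) is the lowest and CCNB1 (0.73) the highest, and 13 genes are higher and 5 lower.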

How the data were processed

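The authors deposited raw counts per gene symbol for 6 libraries. The build is GRCh37 (hg19) and the tools are HISAT2 2.1.0, fastp 0.21.0 and DESeq2 1.3.6, per the submitters' processing notes; no source used here gives the counting tool, annotation or strand setting. Their deposited comparison table holds p-values, a test score, log2 fold changes and a mean signal per gene, all by the authors. Here, edgeR 4.0.16 (R 4.3.3) tested counts with TMM factors, filterByExpr and robust quasi-likelihood fits. The SE is the size of the log2 change over the root of F. Alternatives were other scalings, filters and thresholds, DESeq2 1.42.0, limma-voom (limma 3.58.1), a replicate block, left-out libraries and the local median. RefSeq order on GRCh38.p14 gave neighbours and promoter windows; no other gene positions are printed. Genes named were the 10 members and up to 3 called genes of each list with the smallest adjusted p; part of the label check is not reported here. Members and lists were chosen with earlier results of these data known. The scripts were tested on simulated data. There 17 of 100 genes changed by 0.5 on the log2 scale were recovered, and 73 of 100 changed by 1. Of the calls 3.23% were false. The changed genes were drawn over many levels, and 100 of each size were changed among 21558 genes tested there. In the comparison of p53 KO with p53 WT, 26.5% of genes were called. The shares recovered and false therefore need not hold for the 10 members or for that comparison. Whether they hold was not tested. Same-numbered libraries did not deviate together (r -0.057, 0.133 and -0.208), so numbers were not taken as pairs. Replicates were not copies (lowest chi-square per degree of freedom 16.7).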

Additional observations from a re-analysis of the deposited data

How the results depend on the processing

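Over 18 alternatives for each of the 10 genes (180 values), 154 kept direction and side of the threshold, 12 kept direction and lost the call, 5 gained one, and 7 uncalled values changed sign. ATR and TOPBP1 turned with the local median taken off (-0.45 and -0.087), as did ATMIN (-0.20) and TELO2 (0.16); 1 member was then higher, and 1942 of all genes lower, against 3227, over fewer genes tested. At an adjusted p under 0.01, 0 members were higher and 1 lower, 1659 of all genes higher and 2099 lower, and 7 other pathway genes higher and 3 lower; the stricter threshold is the cause. Leaving out 1 library gave 0 to 4 members higher, 1 to 3 lower, 8 to 13 other pathway genes higher and 3 to 9 lower, and for all genes 1872 to 2857 higher and 2288 to 3202 lower. With the length trend taken off 9 other pathway genes were lower; the cause was not tested. The replicate block gave 2 members higher and 2 lower, 10 and 4 other pathway genes, and 2297 and 2862 of all genes; among the genes named RFC2, RPA3, CCNA2 and USP7 lost their calls under it. The number of libraries, 3 a group, limits how small a change can be called.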
